A study of Homo sapiens with 12 samples.

Results

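Translation initiation factors were taken as all probes whose annotated gene symbol begins with EIF and a digit from 1 to 6. The rule also takes in the kinases that phosphorylate eIF2 (EIF2AK1 to EIF2AK4) and the proteins that bind eIF4E (EIF4EBP1 to EIF4EBP3). It gave 84 of the 47231 probes on the array and 56 of the 20046 gene symbols. The study ran Illumina BeadChips on total RNA from K562, an established human erythroleukemia line. The 4 groups held 3 arrays each: AE9a-expressing cells given an siRNA against PRMT1 (siPRMT1), AE9a-expressing cells given a control siRNA, wild type cells given siPRMT1 and wild type cells given the control siRNA. All groups received 3 µg of siRNA by nucleofection and were harvested 24 hours later. PRMT1 is an arginine methyltransferase, AE9a is an alternatively spliced form of the leukemia fusion protein AML1-ETO, and the series asks what PRMT1 does for transcription by this fusion. The promoter behind AE9a and whether the line is a single clone are not given in the sources used here. Nothing in the labels says that replicates were separate cultures, so the p-values reflect the spread between the arrays at hand, which may be technical.

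Initiation brings the small ribosomal subunit to the start codon of a messenger RNA. The eIF4F complex binds the cap (eIF4E), bridges to the ribosome (eIF4G) and unwinds the leader (the helicase eIF4A, with its helpers eIF4B and eIF4H), while eIF3 holds the small subunit and eIF1, eIF1A and eIF5 control start codon choice. The GTPase eIF2 delivers the initiator tRNA, eIF2B recharges it, and stress kinases that phosphorylate eIF2 block that recharging. The 4E-BP proteins, which mTORC1 phosphorylates, compete with eIF4G for eIF4E.

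Of the 84 probes, 77 were bright enough to be tested, and they stood for all 56 symbols. The 95th percentile of olfactory receptor probes served as a stand-in for background on each array. Of the tested initiation factor probes, 67 lay above this level on all 12 arrays, 7 on some arrays and 3 on no array. The other 7 probes were above it on no array and are second or further probes of EIF1AX, EIF1AY, EIF4E, EIF4EBP3 and EIF4G1. All 40 probes called in any comparison were above it on all 12 arrays. The symbols include the pseudogene EIF3IP1 and the divergent transcript EIF3J-DT, neither of which was called, and the Y-linked EIF1AY, whose values are not given. Values are log2 intensities after background correction (which adds an offset of 50) and quantile normalization. A probe is called where the adjusted p of the limma fit over all 28338 tested probes is under 0.05. Levels are compared only within a probe, since probes differ in how brightly they read the same amount of RNA.

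PRMT1, the target of the siRNA, read 8.89, 8.94 and 9.16 in AE9a siPRMT1 arrays, against 9.63, 9.68 and 9.50 in AE9a control arrays (difference -0.61 ± 0.16 SE, adjusted p = 0.021). It read 10.22, 10.06 and 9.80 in wild type siPRMT1 arrays, against 10.22, 10.43 and 10.83 in wild type control arrays (-0.46 ± 0.16, adjusted p = 0.487). The AE9a groups did not overlap, while wild type siPRMT1 1 and wild type control 1 read alike. The AE9a call was lost without AE9a siPRMT1 1 or 2 or AE9a control 1 or 2. Of 3 tested probes of RUNX1T1, the fusion partner, none was above the olfactory receptor level on more than 1 array, and whether they lie in the stretch that AE9a carries is not given. All 11 erythroid markers on the array lay above that level on all arrays, as did 2 of 5 T cell, 1 of 4 B cell, 1 of 5 monocyte and 2 of 5 epithelial markers. Wild type control 3 stood apart from the other controls: it scored -15.8 on the second principal component, against 21.9 and 21.7 for controls 1 and 2 and -6.54, -0.454 and -18.0 for the wild type siPRMT1 arrays. In bulk RNA, fewer cells of a type and less RNA per cell cannot be told apart.

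In AE9a cells, siPRMT1 shifted initiation factors in both directions. The scaffold EIF4G1, the start codon factor EIF5 and parts of eIF3, eIF2B and eIF4E rose, while EIF1, EIF2A, the heme-regulated kinase EIF2AK1, the helicase EIF4A2 and the eIF2 subunit EIF2S3 fell. Of the 77 tested probes, 17 were called (22.1%), against 13.8% of all tested probes. Of these, 11 were higher (14.3%, against 6.42% of all probes) and 6 were lower (7.79%, against 7.39%). The median difference was 0.04 for initiation factor probes and 0.01 for all probes. The groups did not overlap for 25 probes that read higher and 17 that read lower, against 18.6% and 19.0% of all probes. Sums of raw marker intensity, which include background, moved too. The 5 T cell markers summed to 1030 to 1320 in AE9a siPRMT1 arrays, against 813 to 880 in AE9a control arrays. The 11 erythroid markers summed to 140000 to 143000 in AE9a siPRMT1 arrays, against 148000 to 157000 in AE9a control arrays. The 4 B cell markers summed to 301 to 326 in AE9a siPRMT1 arrays, against 332 to 364 in AE9a control arrays. These B cell sums lie near background. For a single probe, the olfactory receptor level was 66.7 to 70.8 in AE9a siPRMT1 arrays and 71 to 77.4 in AE9a control arrays. Whether the B cell shift exceeds that of background was not tested. The part of the marker sums in the initiation factor changes was not tested either.

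**Figure D1:**
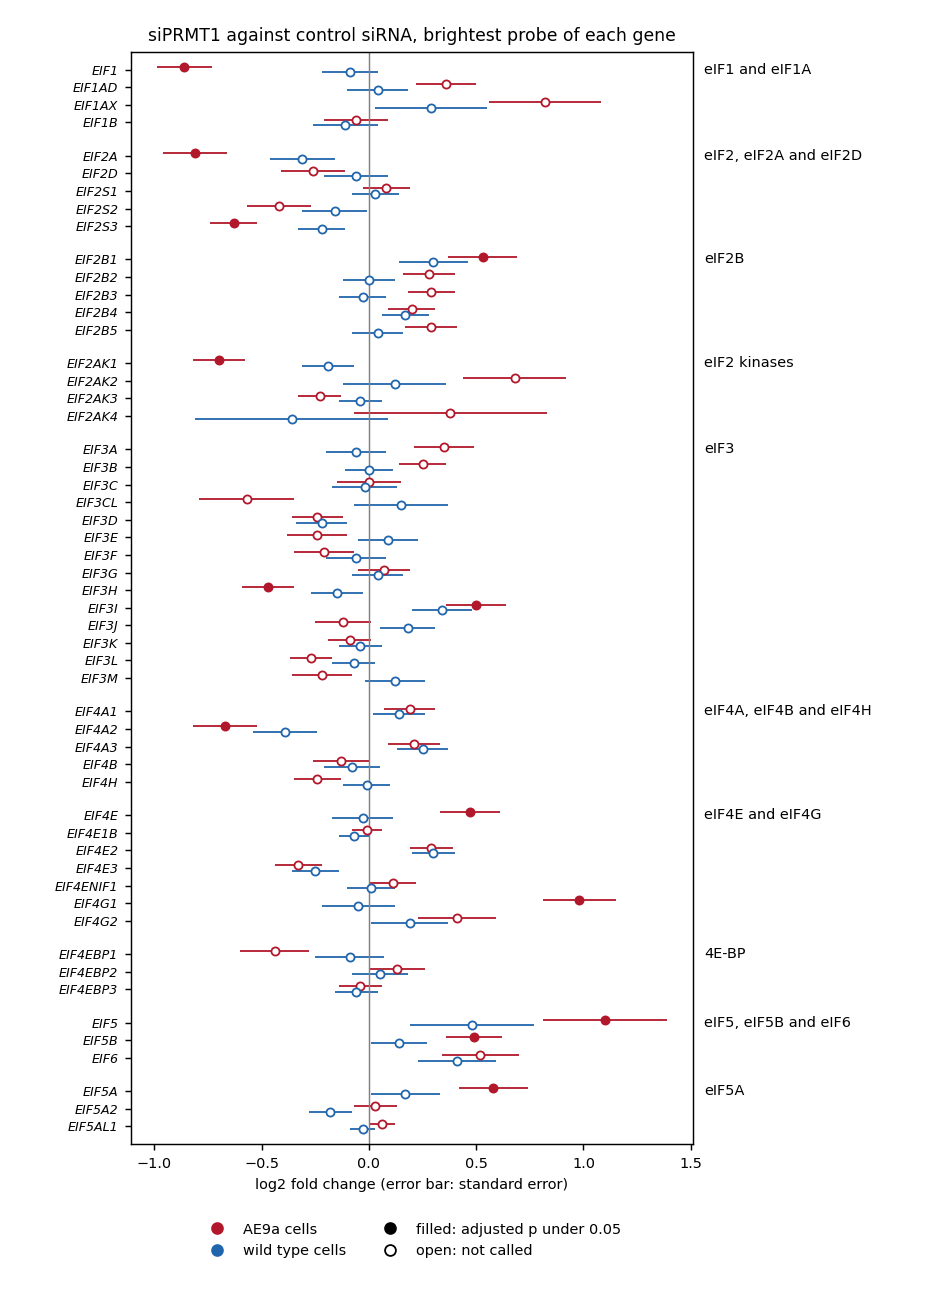
Log2 difference of siPRMT1 against control siRNA for the brightest tested probe of each initiation factor gene, ordered by complex, in AE9a cells (red) and wild type cells (blue). Bars show standard errors of the limma fit, and filled points have an adjusted p under 0.05. In AE9a cells 13 genes are filled and in wild type cells 0, and EIF1 (-0.86) and EIF5 (1.10) mark the ends of the AE9a range. EIF1AY, EIF3IP1 and EIF3J-DT are not drawn.

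Promoters are shown for 7 genes, chosen by whether they hold the motif CACGTG. Of 32 initiation factor genes called in any comparison, 25 had a promoter in the table, and the 6 that hold the motif are shown: EIF4G1 and EIF4E, which rose after siPRMT1, and EIF4E, EIF4B, EIF4H, EIF3F and EIF2AK2, which were lower in the AE9a line than in wild type cells. EIF1, with the strongest fall after siPRMT1, stands for the 19 without it, which include EIF5, EIF2S3, EIF4A2, EIF2A and EIF3B. Each sequence is the 250 bases before the annotated start (RefSeq, build GRCh38.p14), 5′ to 3′ on the gene's strand. Capitals mark this motif, the E-box that MYC, USF and related factors can bind, which reads the same on both strands. The motif was chosen after the expression values were seen.
EIF4G1: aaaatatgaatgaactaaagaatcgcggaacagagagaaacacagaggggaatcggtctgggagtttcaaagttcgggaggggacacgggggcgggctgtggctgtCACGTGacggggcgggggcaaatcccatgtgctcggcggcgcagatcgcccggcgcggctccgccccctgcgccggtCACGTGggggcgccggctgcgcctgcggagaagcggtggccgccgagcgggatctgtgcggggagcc
EIF4E: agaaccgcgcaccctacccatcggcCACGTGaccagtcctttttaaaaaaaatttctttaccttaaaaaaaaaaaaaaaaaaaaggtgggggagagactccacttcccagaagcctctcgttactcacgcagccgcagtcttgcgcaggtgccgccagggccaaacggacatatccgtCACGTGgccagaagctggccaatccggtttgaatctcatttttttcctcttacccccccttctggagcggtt
EIF4B: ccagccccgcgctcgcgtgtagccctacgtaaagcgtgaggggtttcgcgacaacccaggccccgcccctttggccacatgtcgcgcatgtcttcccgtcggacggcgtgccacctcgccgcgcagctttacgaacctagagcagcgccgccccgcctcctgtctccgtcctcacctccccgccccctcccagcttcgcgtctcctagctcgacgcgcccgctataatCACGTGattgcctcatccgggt
EIF4H: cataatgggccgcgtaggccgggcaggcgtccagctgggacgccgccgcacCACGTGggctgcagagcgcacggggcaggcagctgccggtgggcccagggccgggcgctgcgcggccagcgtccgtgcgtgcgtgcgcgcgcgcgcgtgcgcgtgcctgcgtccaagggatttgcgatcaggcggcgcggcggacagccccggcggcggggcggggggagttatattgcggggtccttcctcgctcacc
EIF3F: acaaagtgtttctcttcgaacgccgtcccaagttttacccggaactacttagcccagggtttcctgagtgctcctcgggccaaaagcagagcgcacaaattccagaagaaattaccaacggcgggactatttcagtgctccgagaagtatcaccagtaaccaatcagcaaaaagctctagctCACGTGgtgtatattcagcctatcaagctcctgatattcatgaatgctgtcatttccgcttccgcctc
EIF2AK2: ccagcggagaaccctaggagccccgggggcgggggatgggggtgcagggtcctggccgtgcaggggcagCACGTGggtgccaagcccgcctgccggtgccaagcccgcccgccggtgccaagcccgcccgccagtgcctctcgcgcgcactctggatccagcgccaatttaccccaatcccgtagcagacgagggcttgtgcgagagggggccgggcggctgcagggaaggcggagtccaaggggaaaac
EIF1: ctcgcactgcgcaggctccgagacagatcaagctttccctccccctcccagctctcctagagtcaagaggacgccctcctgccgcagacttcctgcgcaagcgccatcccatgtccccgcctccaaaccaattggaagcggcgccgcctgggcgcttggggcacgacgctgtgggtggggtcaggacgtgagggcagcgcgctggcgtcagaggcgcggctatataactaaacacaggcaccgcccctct
These lie at chr3:184314356-184314605 on the plus strand (EIF4G1), chr4:98929134-98929383 on the minus strand (EIF4E), chr12:53006206-53006455 on the plus strand (EIF4B), chr7:74174106-74174355 on the plus strand (EIF4H), chr11:7987087-7987336 on the plus strand (EIF3F), chr2:37156981-37157230 on the minus strand (EIF2AK2) and chr17:41688635-41688884 on the plus strand (EIF1). EIF4G1 and EIF4E each hold 2 copies, the copies of EIF4G1 beginning 144 and 67 bases before the start and those of EIF4E 225 and 72 bases before it. EIF4B holds 1 copy 22 bases before the start, and EIF1 holds none.

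Within eIF4F, the scaffold EIF4G1 and the cap-binding EIF4E rose and the helicase EIF4A2 fell. EIF4G1, which joins eIF4E, eIF4A and eIF3, read 11.00, 11.19 and 11.43 in AE9a siPRMT1 arrays, against 10.35, 10.16 and 10.18 in AE9a control arrays. All siPRMT1 arrays stood above all control arrays, by 0.98 ± 0.17 on the log2 scale (1.97-fold, adjusted p = 0.00227). A further EIF4G1 probe read 10.48, 10.59 and 10.92 in AE9a siPRMT1 arrays, against 10.05, 9.75 and 9.72 in AE9a control arrays, again without overlap (0.83 ± 0.17, adjusted p = 0.00609). Both calls held without each array in turn. For EIF4G2, a scaffold relative that lacks the eIF4E-binding part, 3 probes disagreed. Its second probe read 11.86, 12.28 and 12.25 in AE9a siPRMT1 arrays, against 11.52, 11.62 and 11.54 in AE9a control arrays (0.57 ± 0.13, adjusted p = 0.0119, lost without AE9a siPRMT1 2 or 3). The brightest EIF4G2 probe differed by 0.41 ± 0.18 (adjusted p = 0.156) and the dimmest by -0.15 ± 0.27 (adjusted p = 0.809).

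EIF4E, the cap-binding subunit, read 8.68, 8.61 and 8.70 in AE9a siPRMT1 arrays, against 8.19, 8.22 and 8.16 in AE9a control arrays. The groups did not overlap, and the difference of 0.47 ± 0.14 passed narrowly (adjusted p = 0.045). It was lost when any of the 6 AE9a arrays or wild type siPRMT1 1 was left out (adjusted p up to 0.137), and a dimmer EIF4E probe differed by 0.10 ± 0.11 (adjusted p = 0.655). EIF4E2, a cap-binding relative that represses translation, differed by 0.29 ± 0.10 without passing (adjusted p = 0.0787). EIF4E3 differed by -0.33 ± 0.11 (adjusted p = 0.0626). EIF4ENIF1, which carries eIF4E into the nucleus, differed by 0.11 ± 0.11 (adjusted p = 0.609). The 4E-BP genes were not called: EIF4EBP1 read 7.85, 7.60 and 7.60 in AE9a siPRMT1 arrays, against 8.08, 7.91 and 8.39 in AE9a control arrays (-0.44 ± 0.16, adjusted p = 0.0795), and EIF4EBP2 differed by 0.13 ± 0.13 (adjusted p = 0.616).

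Of 3 eIF4A helicase genes, EIF4A2 was called. It read 12.06, 12.23 and 12.03 in AE9a siPRMT1 arrays, against 12.70, 12.84 and 12.78 in AE9a control arrays, with no overlap (-0.67 ± 0.15, adjusted p = 0.00953). EIF4A1, its close paralog, read 14.52, 14.45 and 14.67 in AE9a siPRMT1 arrays, against 14.42, 14.30 and 14.35 in AE9a control arrays (0.19 ± 0.12, adjusted p = 0.334). EIF4A3, a helicase of the exon junction complex, differed by 0.21 ± 0.12 (adjusted p = 0.282). The helicase helpers EIF4B (-0.13 ± 0.13, adjusted p = 0.595) and EIF4H (-0.24 ± 0.11, adjusted p = 0.194) were not called.

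Among factors that set the start codon, the strongest fall was that of EIF1, which keeps the scanning ribosome open and guards start codon fidelity. EIF1 read 12.42, 12.58 and 12.32 in AE9a siPRMT1 arrays, against 13.20, 13.35 and 13.35 in AE9a control arrays. Every siPRMT1 array lay below every control array, a difference of -0.86 ± 0.13 (1.81-fold lower, adjusted p = 0.00118), and the call held without each array in turn. Its paralog EIF1B gave no call (-0.06 ± 0.15, adjusted p = 0.861). EIF1AX, which works beside eIF1 on the scanning subunit, read 11.11, 11.44 and 11.55 in AE9a siPRMT1 arrays, against 11.10, 10.29 and 10.25 in AE9a control arrays. Control 1 read close to the lowest siPRMT1 array, and the difference of 0.82 ± 0.26 missed the threshold (adjusted p = 0.052). EIF5, the GTPase-activating protein of eIF2, read 10.28, 10.14 and 10.04 in AE9a siPRMT1 arrays, against 9.59, 8.65 and 8.90 in AE9a control arrays. The groups did not overlap although the controls spread widely (1.10 ± 0.29, 2.15-fold, adjusted p = 0.0218). The EIF5 call was lost without AE9a siPRMT1 1, 2 or 3 or AE9a control 2 or 3 (adjusted p up to 0.106), and its 3 dimmer probes differed by 0.04, 0.11 and 0.05. EIF5B, the GTPase that joins the ribosomal subunits, differed by 0.49 ± 0.13 (adjusted p = 0.0278, lost without AE9a siPRMT1 2 or 3 or AE9a control 2 or 3). EIF6, which keeps the subunits apart, read 11.25, 11.33 and 11.36 in AE9a siPRMT1 arrays, against 10.74, 10.83 and 10.83 in AE9a control arrays, which did not overlap but did not pass (0.52 ± 0.18, adjusted p = 0.0716).

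**Figure D2:**
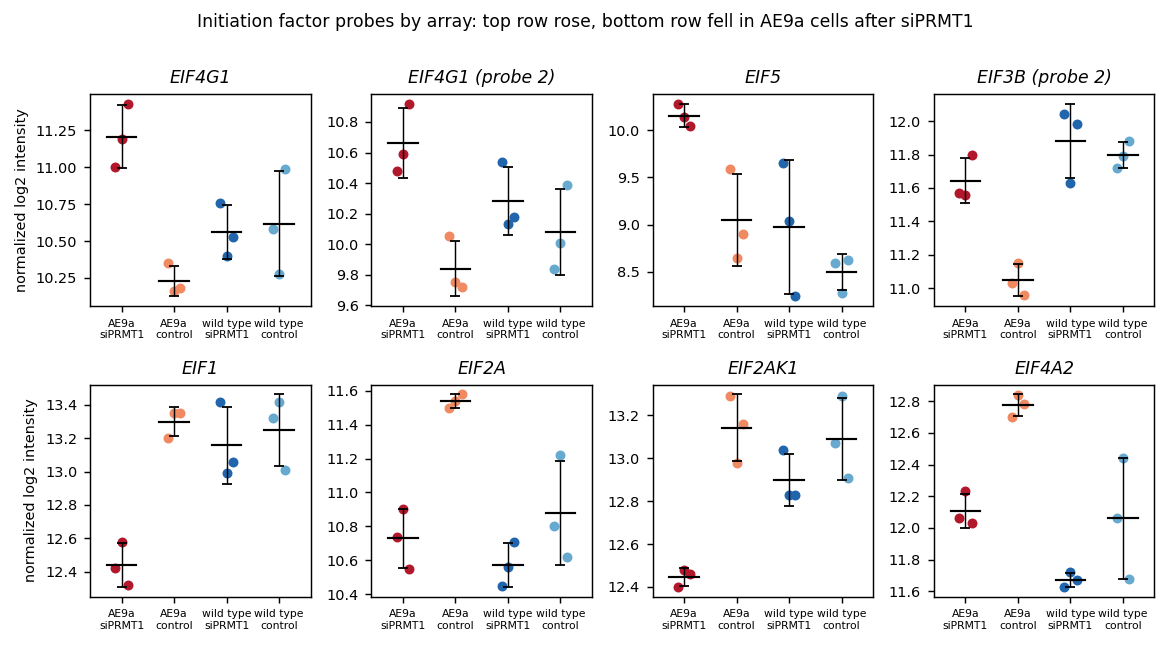
Normalized log2 intensity on each of the 12 arrays for 8 initiation factor probes, by group, with group means as lines. In AE9a cells the siPRMT1 arrays of EIF4G1, EIF5 and EIF3B (upper panels) lie above the AE9a control arrays, and those of EIF1, EIF2A, EIF2AK1 and EIF4A2 (lower panels) lie below them.

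In the eIF2 pathway, calls were lower among carriers of the initiator tRNA, and 1 call was higher, in the recharging factor eIF2B. EIF2S3, the subunit of eIF2 that binds GTP and tRNA, read 11.35, 11.51 and 11.47 in AE9a siPRMT1 arrays, against 12.05, 12.19 and 11.96 in AE9a control arrays, without overlap (-0.63 ± 0.11, adjusted p = 0.00185). EIF2S1, the subunit that the kinases phosphorylate, read 8.81, 8.67 and 8.86 in AE9a siPRMT1 arrays, against 8.71, 8.67 and 8.72 in AE9a control arrays, which overlapped (0.08 ± 0.11, adjusted p = 0.734). EIF2S2 differed by -0.42 ± 0.15 (adjusted p = 0.0868), and EIF2D, another carrier of initiator tRNA, by -0.26 ± 0.15 (not called). EIF2A, which is no subunit of eIF2 but an alternative carrier of the initiator tRNA, read 10.74, 10.90 and 10.55 in AE9a siPRMT1 arrays, against 11.50, 11.54 and 11.58 in AE9a control arrays. Its groups were far apart (-0.81 ± 0.15, adjusted p = 0.00305), and the calls of EIF2A and EIF2S3 held without each array. All 5 subunits of eIF2B, the exchange factor, read higher on average by their brightest probe, between 0.20 (EIF2B4) and 0.53 (EIF2B1). The groups did not overlap for 6 of the 7 eIF2B probes, all higher, against 18.6% of all probes. The third EIF2B4 probe, above the olfactory receptor level on no array, overlapped (-0.03 ± 0.06). EIF2B1 alone passed (0.53 ± 0.16, adjusted p = 0.0366), and its call was lost whichever of the 6 AE9a arrays was left out (adjusted p up to 0.132). EIF2B5, the catalytic subunit, read 9.52, 9.65 and 9.60 in AE9a siPRMT1 arrays, against 9.29, 9.23 and 9.37 in AE9a control arrays (0.29 ± 0.12, adjusted p = 0.142).

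Of the 4 eIF2 kinases, EIF2AK1 (HRI), which senses low heme in red cell precursors, was called. It read 12.40, 12.48 and 12.46 in AE9a siPRMT1 arrays, against 13.29, 12.98 and 13.16 in AE9a control arrays. The siPRMT1 arrays were nearly level and all below the controls (-0.70 ± 0.12, adjusted p = 0.00168), and the call held without each array. A further EIF2AK1 probe, far dimmer, differed by -0.14 ± 0.11 (adjusted p = 0.498). EIF2AK2 (PKR), activated by double-stranded RNA, read 9.07, 9.20 and 9.37 in AE9a siPRMT1 arrays, against 8.96, 8.31 and 8.33 in AE9a control arrays (0.68 ± 0.24, adjusted p = 0.0767). EIF2AK3 (PERK), the kinase of the endoplasmic reticulum, differed by -0.23 ± 0.10 (adjusted p = 0.166). EIF2AK4 (GCN2), which senses uncharged tRNA, read 9.48, 9.66 and 8.69 in AE9a siPRMT1 arrays, against 9.44, 8.50 and 8.76 in AE9a control arrays, a spread too wide to show a difference (0.38 ± 0.45, adjusted p = 0.685).

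In eIF3, 18 probes stood for 14 symbols, of which 3 probes rose (16.7%, against 6.42% of all probes) and 1 fell (5.56%, against 7.39%). Called or not, 6 eIF3 probes had a positive difference and 11 a negative one, with a median of -0.10, against 0.01 for all probes. The groups did not overlap for 3 that read higher and 6 that read lower, against 18.6% and 19.0% of all probes. EIF3B, a core scaffold subunit, rose by 2 of its 3 probes. The second EIF3B probe read 11.57, 11.56 and 11.80 in AE9a siPRMT1 arrays, against 11.03, 11.15 and 10.96 in AE9a control arrays (0.60 ± 0.12, adjusted p = 0.00627). The third probe rose by 0.61 ± 0.13 (adjusted p = 0.0067), while the brightest, at 13.46, 13.37 and 13.73 in AE9a siPRMT1 arrays against 13.12, 13.38 and 13.31 in AE9a control arrays, overlapped and did not pass (0.25 ± 0.11, adjusted p = 0.177). EIF3I, which binds EIF3B, rose by 0.50 ± 0.14 (adjusted p = 0.0316, lost without AE9a siPRMT1 2 or 3 or AE9a control 1, 2 or 3). EIF3H, a peripheral subunit, fell by 0.47 (SE 0.12, adjusted p = 0.0181, lost without AE9a siPRMT1 1 or 2 or AE9a control 2). EIF3A, the largest subunit, read 11.23, 11.52 and 11.48 in AE9a siPRMT1 arrays, against 11.28, 10.80 and 11.10 in AE9a control arrays, which overlapped (0.35 ± 0.14, adjusted p = 0.119). EIF3C and EIF3CL are near-identical copies, so their probes cannot be assigned with certainty, and neither was called here. Not called either were EIF3A, EIF3D, EIF3E, EIF3F, EIF3G, EIF3J, EIF3K, EIF3L and EIF3M, and the brightest probes of the uncalled subunits, EIF3C and EIF3CL included, lay between -0.57 (EIF3CL) and 0.35 (EIF3A). EIF5A, which acts mainly in elongation despite its name, read 12.99, 12.82 and 12.94 in AE9a siPRMT1 arrays, against 12.26, 12.38 and 12.37 in AE9a control arrays (0.58 ± 0.16, adjusted p = 0.026). The EIF5A call was lost whichever of the 6 AE9a arrays was left out (adjusted p up to 0.0863), and its near-identical relative EIF5AL1 may share the signal. EIF5A2, a further relative, differed by 0.03 ± 0.10 and EIF4E1B, a relative of EIF4E, by -0.01 ± 0.07.

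Of the 17 calls, 9 held without each of the 12 arrays in turn: EIF1, EIF2A, EIF2AK1, EIF2S3, EIF4A2, both EIF4G1 probes and the 2 called EIF3B probes. The count of calls was 9 without AE9a siPRMT1 2, 10 without AE9a siPRMT1 3, 10 without AE9a control 2 and 11 without AE9a control 3, where 9.38%, 7.36%, 7.99% and 7.82% of all probes were called. In a fit that pairs the wild type arrays by replicate number it was 28, and 21.5% of all probes were called.

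In wild type cells no initiation factor was called after siPRMT1, as was the case for all 28338 probes (0%). At an unadjusted p under 0.05, 6 of 77 initiation factor probes passed (7.79%), against 8.72% of all probes. EIF4G1 read 10.76, 10.40 and 10.53 in wild type siPRMT1 arrays, against 10.58, 10.28 and 10.99 in wild type control arrays, which overlapped (-0.05 ± 0.17, adjusted p = 0.947). EIF1 read 13.42, 12.99 and 13.06 in wild type siPRMT1 arrays, against 13.32, 13.42 and 13.01 in wild type control arrays, also overlapping (-0.09 ± 0.13, adjusted p = 0.873). The second EIF4G2 probe read 12.46, 12.52 and 12.54 in wild type siPRMT1 arrays, against 11.88, 11.85 and 12.27 in wild type control arrays. These did not overlap, and the difference of 0.50 ± 0.13 had the smallest adjusted p among initiation factors (0.442). EIF4A2 differed by -0.39 ± 0.15 (adjusted p = 0.518). Without wild type control 3, the array that stood apart, 3 of 77 probes were called, against 2.96% of all probes: both brighter EIF4G2 probes (0.64, adjusted p = 0.0193, and 0.46, adjusted p = 0.047) and EIF4A2 (-0.58, adjusted p = 0.0262). The sign in wild type cells matched that in AE9a cells for 15 of the 17 initiation factor calls (88.2%), against 81.8% of the 3913 calls over all probes.

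The test of the difference between the lines called 0 of 77 initiation factor probes, against 0.917% of all probes. At an unadjusted p under 0.05, 11 of 77 passed (14.3%), against 13.0% of all probes. EIF4G1 had the largest difference of the siPRMT1 effect, AE9a minus wild type, at 1.03 ± 0.24 (95% interval 0.51 to 1.55, adjusted p = 0.0627). EIF1 came next by p, at -0.77 ± 0.19 (95% interval -1.17 to -0.36, adjusted p = 0.0771). In the fit that pairs the wild type arrays by replicate number both passed (EIF4G1 adjusted p = 0.0108, EIF1 adjusted p = 0.0156), as 4.38% of all probes did there. EIF4G1 also passed with all arrays paired (adjusted p = 0.0379), with array weights (0.96, adjusted p = 0.0363) and without wild type control 2 (1.2, adjusted p = 0.029). For EIF2AK1 the difference was -0.51 ± 0.16 (adjusted p = 0.187), and for EIF5 0.63 ± 0.41 (95% interval -0.26 to 1.51, adjusted p = 0.565). For EIF2AK1 and EIF5 the effect of siPRMT1 was not shown to differ between the lines in any fit run.

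**Figure D3:**
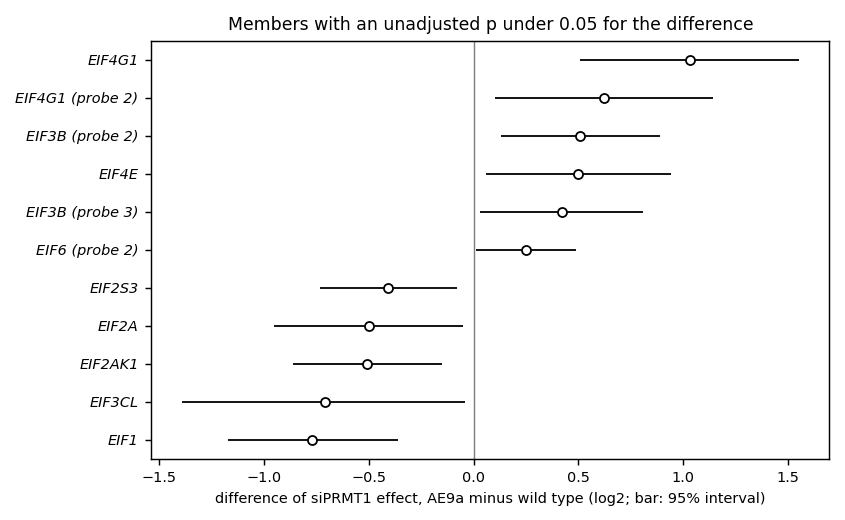
Difference of the siPRMT1 effect, AE9a minus wild type, in log2 units with 95% intervals, for the 11 initiation factor probes with an unadjusted p under 0.05. EIF4G1 (1.03) and EIF1 (-0.77) lie farthest from 0 in relation to their intervals, and none of the 11 has an adjusted p under 0.05.

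The AE9a line differed from the wild type line in initiation factors under either siRNA. Most eIF3 calls were lower, the helicase helpers EIF4B and EIF4H and, under control siRNA, the kinase EIF2AK2 and the cap-binding EIF4E were lower, while EIF2S3, EIF4A2, EIF2B5 and probes of EIF1AX and EIF4A1 were higher. Under control siRNA, 23 of 77 probes were called (29.9%), against 26.7% of all tested probes. They comprised 9 that were higher (11.7%, against 13.2% of all) and 14 that were lower (18.2%, against 13.4%), with a median of -0.07, against -0.02 for all probes. Of the 23 calls, 19 held without each array in turn. Under siPRMT1, 24 of 77 were called (31.2%, against 24.7% of all), 10 higher (13.0%, against 11.9%) and 14 lower (18.2%, against 12.8%), and 14 held without each array in turn. These 2 comparisons share no array, though same-numbered wild type arrays deviated together. Both use the spread of each probe estimated from all 12 arrays, so their calls are not independent. They shared 12 calls with the same direction, 5 higher and 7 lower, and none with opposite directions, which is 52.2% of the calls under control siRNA and 50% of those under siPRMT1. Over all tested probes, 4702 calls were shared with the same direction, 62.2% of the 7555 under control siRNA and 67.2% of the 7002 under siPRMT1. Markers of other cells also moved with the line: the summed raw intensity of 5 monocyte markers was 857 to 1140 in AE9a control arrays, against 366 to 449 in wild type control arrays, where CD14 passed the olfactory receptor level throughout and CSF1R on no array. The sum of 5 T cell markers was 813 to 880 in AE9a control arrays, against 1130 to 2410 in wild type control arrays, while under siPRMT1 it overlapped, at 1030 to 1320 in AE9a arrays against 966 to 3180 in wild type arrays, with CD3E above that level on no array. The sum of 11 erythroid markers was 148000 to 157000 in AE9a control arrays, against 102000 to 108000 in wild type control arrays, and that of 5 epithelial markers was 4850 to 5410 in AE9a control arrays, against 5750 to 8880 in wild type control arrays. PRMT1 itself was lower in the AE9a line under either siRNA, as given above. The part of these marker levels and of the PRMT1 level in the initiation factor results was not tested.

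**Figure D4:**
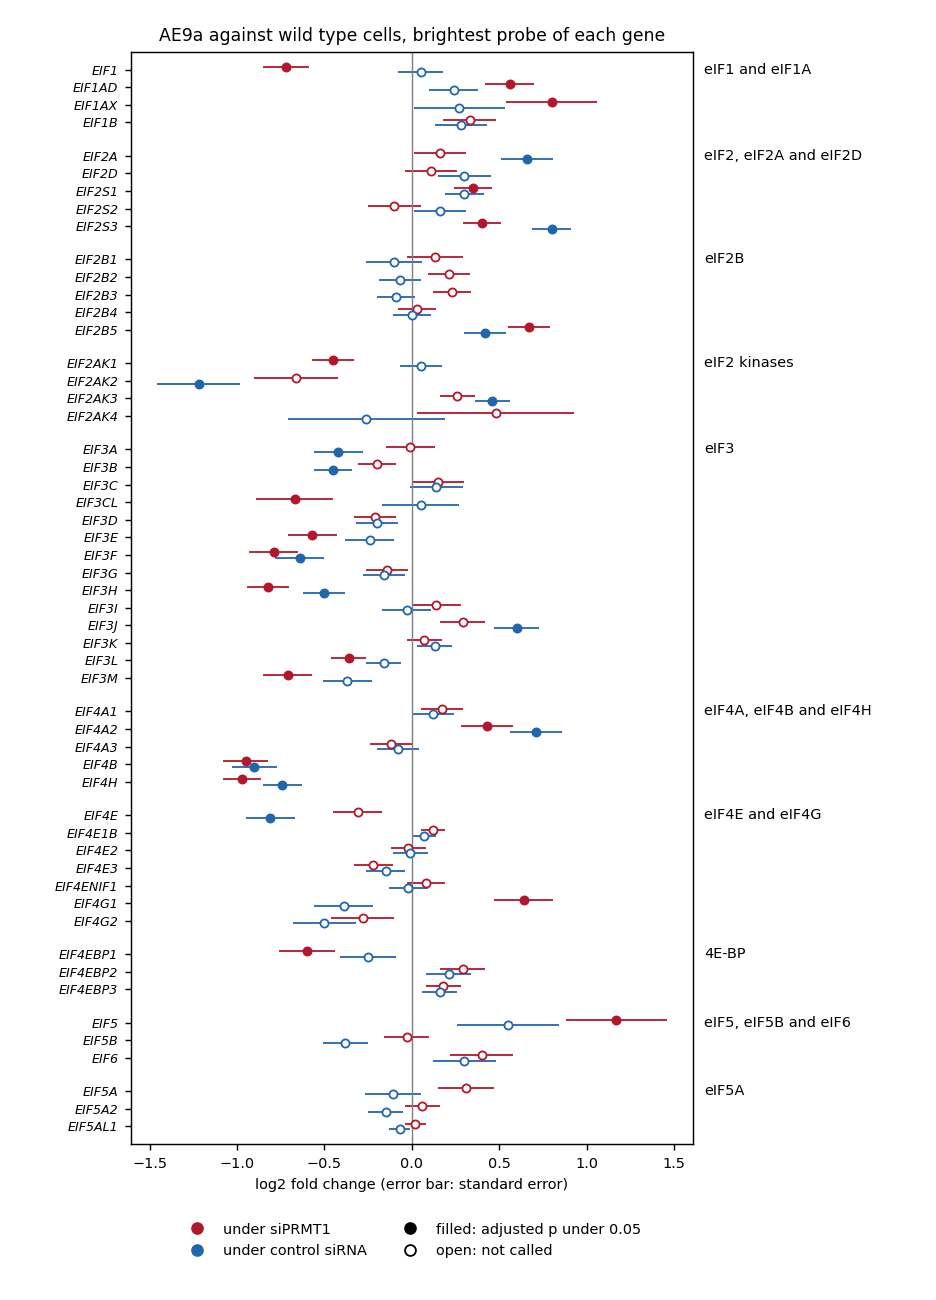
Log2 difference of AE9a against wild type cells for the brightest tested probe of each initiation factor gene, ordered by complex, under siPRMT1 (red) and under control siRNA (blue). Bars show standard errors of the limma fit, and filled points have an adjusted p under 0.05. EIF1AY, EIF3IP1 and EIF3J-DT are not drawn. EIF4B and EIF4H are filled and negative under both siRNAs, and EIF2S3 and EIF4A2 are filled and positive under both.

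Of 18 eIF3 probes, 7 were lower and 1 was higher in AE9a cells under control siRNA, and 7 were lower and 0 higher under siPRMT1. The lower calls were 38.9% of eIF3 probes under either siRNA, against 13.4% of all probes under control siRNA and 12.8% under siPRMT1. EIF3F, a subunit of the peripheral module, read 12.04, 11.94 and 11.95 in AE9a control arrays, against 12.79, 12.83 and 12.24 in wild type control arrays (-0.64 ± 0.14, adjusted p = 0.00284). Under siPRMT1 EIF3F read 11.78, 11.71 and 11.80 in AE9a arrays, against 12.67, 12.55 and 12.45 in wild type arrays, again without overlap (-0.79 ± 0.14, adjusted p = 0.000656). EIF3H, its partner in that module, read 11.78, 11.85 and 11.92 in AE9a siPRMT1 arrays, against 12.47, 12.85 and 12.69 in wild type siPRMT1 arrays (-0.82 ± 0.12, adjusted p = 0.000149), and was lower under control siRNA too (-0.50 ± 0.12, adjusted p = 0.00584). EIF3M was lower under siPRMT1 by both probes (-0.71 ± 0.14, adjusted p = 0.00206, and -0.51 ± 0.10, adjusted p = 0.00149) and under control siRNA by the second (-0.51 ± 0.10, adjusted p = 0.00136), its brightest probe giving -0.37 ± 0.14 (adjusted p = 0.0697).

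All 3 probes of EIF3B were lower in AE9a cells under control siRNA. The second read 11.03, 11.15 and 10.96 in AE9a control arrays, against 11.72, 11.79 and 11.88 in wild type control arrays, which are well apart (-0.74 ± 0.12, adjusted p = 0.000443). The brightest gave -0.45 ± 0.11 (adjusted p = 0.00769) and the third -0.61 ± 0.13 (adjusted p = 0.00254). Under siPRMT1 none of the 3 was called, the values lying between -0.24 and -0.19. The comparison of siPRMT1 in AE9a cells uses the same AE9a control arrays. EIF3A was lower under control siRNA (-0.42 ± 0.14, adjusted p = 0.0377, lost without AE9a control 2 or 3 or wild type control 1 or 2, or in the fit that pairs the wild type arrays) and gave -0.01 ± 0.14 under siPRMT1 (adjusted p = 0.983). EIF3J, a loosely bound subunit, was the eIF3 member that was higher under control siRNA (0.60 ± 0.13, adjusted p = 0.00299). Under siPRMT1 alone, EIF3E (-0.57 ± 0.14, lost without AE9a siPRMT1 1), EIF3L (-0.36 ± 0.10, lost without AE9a siPRMT1 1 or 2 or wild type siPRMT1 3) and EIF3CL (-0.67 ± 0.22, lost without AE9a siPRMT1 2 or 3, AE9a control 2 or 3, wild type siPRMT1 3 or wild type control 2, or in the fit that pairs the wild type arrays) were also called lower, and whether they differ between the siRNAs was not shown by the test of the difference (adjusted p = 0.536, 0.607 and 0.352).

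The cap-binding and unwinding factors separated by subunit. EIF4B, which stimulates the helicase, read 12.11, 12.28 and 12.19 in AE9a control arrays, against 13.13, 13.33 and 12.83 in wild type control arrays (-0.90 ± 0.13, 1.87-fold lower, adjusted p = 0.000107). Under siPRMT1 EIF4B read 11.88, 12.21 and 12.09 in AE9a arrays, against 12.95, 13.00 and 13.09 in wild type arrays (-0.95 ± 0.13, adjusted p = 7.67e-05). The lines did not overlap under either siRNA. EIF4H, which does similar work, read 11.75, 11.91 and 11.88 in AE9a control arrays, against 12.46, 12.54 and 12.75 in wild type control arrays (-0.74 ± 0.11, adjusted p = 0.000207). EIF4H read 11.55, 11.60 and 11.67 in AE9a siPRMT1 arrays, against 12.40, 12.58 and 12.73 in wild type siPRMT1 arrays (-0.97 ± 0.11, adjusted p = 2.19e-05). A further EIF4H probe was lower as well, by -0.71 ± 0.10 under control siRNA and -0.86 ± 0.10 under siPRMT1. The helicase EIF4A2 read 12.70, 12.84 and 12.78 in AE9a control arrays, against 12.06, 12.44 and 11.68 in wild type control arrays, and was higher (0.71 ± 0.15, adjusted p = 0.00265). Under siPRMT1 its difference of 0.43 ± 0.15 passed narrowly (adjusted p = 0.0498) and was lost when any array but wild type control 2 or 3 was left out. The EIF4A1 probes disagreed: the second read 11.68, 11.24 and 11.51 in AE9a control arrays, against 10.23, 10.59 and 10.64 in wild type control arrays (0.99 ± 0.14, adjusted p = 0.000126), while the brightest gave 0.12 ± 0.12 (adjusted p = 0.522). Which transcripts each EIF4A1 probe reads is not given.

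EIF4E read 8.19, 8.22 and 8.16 in AE9a control arrays, against 8.77, 9.23 and 8.99 in wild type control arrays, and was lower without overlap (-0.81 ± 0.14, adjusted p = 0.000797). Under siPRMT1 the brightest EIF4E probe gave -0.31 ± 0.14 (adjusted p = 0.146) and the second was called (-0.42 ± 0.11, adjusted p = 0.0106, lost without AE9a siPRMT1 1 or in the fit that pairs the wild type arrays). Under control siRNA the second probe passed narrowly (-0.31 ± 0.11, adjusted p = 0.049) and lost its call when any array but AE9a siPRMT1 1, AE9a siPRMT1 3 or wild type control 1 was left out, and in the fit that pairs the wild type arrays. EIF4G1 gave -0.39 ± 0.17 under control siRNA (adjusted p = 0.119). Under siPRMT1 EIF4G1 was higher in AE9a cells, at 11.00, 11.19 and 11.43, against 10.76, 10.40 and 10.53 in wild type cells (0.64 ± 0.17, adjusted p = 0.013, lost without AE9a siPRMT1 3 or wild type siPRMT1 2). The second EIF4G2 probe was lower under control siRNA (-0.44 ± 0.13, adjusted p = 0.0244, lost without AE9a control 1 or 3 or wild type control 3, or in the fit that pairs the wild type arrays). EIF4EBP1 was lower under siPRMT1 (-0.60 ± 0.16, adjusted p = 0.0113, lost without wild type siPRMT1 3) and gave -0.25 ± 0.16 under control siRNA (adjusted p = 0.285).

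**Figure D5:**
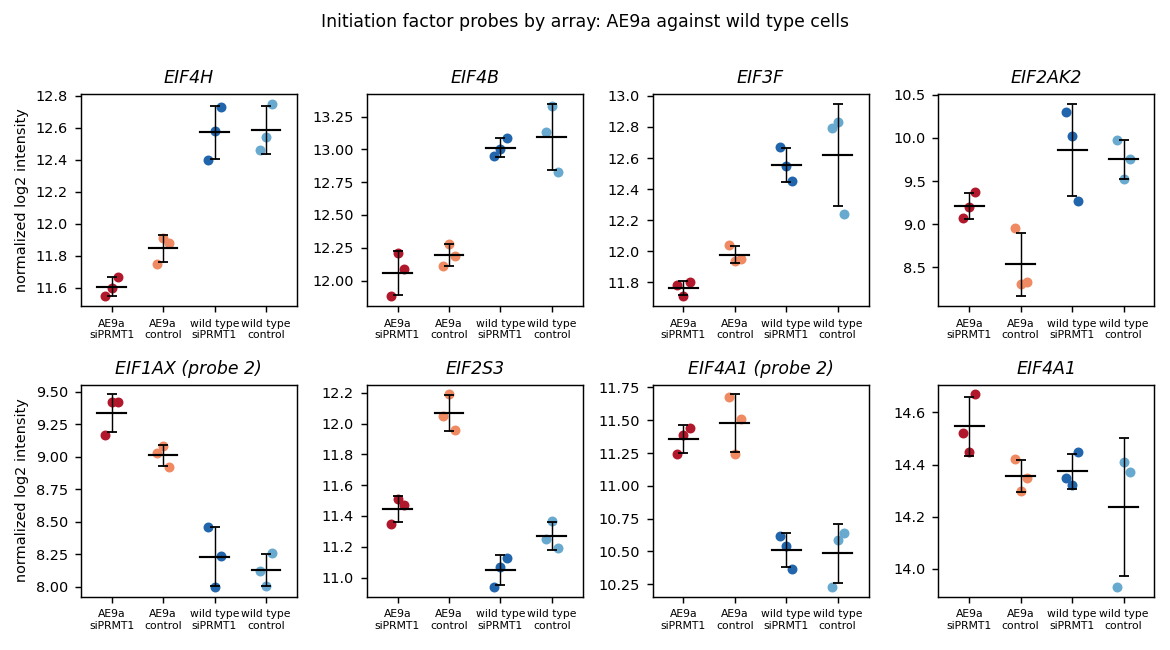
Normalized log2 intensity on each of the 12 arrays for 8 initiation factor probes, by group, with group means as lines. EIF4H, EIF4B and EIF3F (upper panels) are lower on all AE9a arrays than on all wild type arrays, EIF2AK2 is lower on the AE9a control arrays (8.31 to 8.96) than on the wild type control arrays (9.52 to 9.97), and EIF1AX probe 2 and EIF4A1 probe 2 (lower panels) are higher on all AE9a arrays.

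The eIF2 kinases differed from each other between the lines. EIF2AK2 (PKR) read 8.96, 8.31 and 8.33 in AE9a control arrays, against 9.97, 9.52 and 9.76 in wild type control arrays, the most negative difference of any initiation factor in this comparison (-1.22 ± 0.24, 2.33-fold lower, adjusted p = 0.00152). Under siPRMT1 EIF2AK2 gave -0.66 ± 0.24 with overlapping groups (adjusted p = 0.0606). EIF2AK3 (PERK) read 7.65, 7.49 and 7.70 in AE9a control arrays, against 7.19, 7.06 and 7.22 in wild type control arrays, without overlap (0.46 ± 0.10, adjusted p = 0.0042). For EIF2AK1 (HRI) the brightest probe gave 0.05 ± 0.12 under control siRNA (adjusted p = 0.804), while the dimmer probe was called higher (0.51 ± 0.11, adjusted p = 0.00302). Under siPRMT1 the brightest EIF2AK1 probe read 12.40, 12.48 and 12.46 in AE9a arrays, against 13.04, 12.83 and 12.83 in wild type arrays, and was lower (-0.45 ± 0.12, adjusted p = 0.0104), though not in the mean of its probes. EIF2AK4 (GCN2) was not called under control siRNA (-0.26 ± 0.45, adjusted p = 0.742) or siPRMT1 (0.48 ± 0.45, adjusted p = 0.519).

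EIF2S3 read 12.05, 12.19 and 11.96 in AE9a control arrays, against 11.25, 11.37 and 11.19 in wild type control arrays, the smallest adjusted p among initiation factors under control siRNA (0.80 ± 0.11, adjusted p = 6.05e-05). Under siPRMT1 it was higher by 0.40 ± 0.11 (adjusted p = 0.0131, lost without AE9a siPRMT1 2 or wild type siPRMT1 1). EIF2A was higher under control siRNA, at 11.50, 11.54 and 11.58 in AE9a cells against 10.80, 11.22 and 10.62 in wild type cells (0.66 ± 0.15, adjusted p = 0.00418), and gave 0.16 ± 0.15 under siPRMT1 (adjusted p = 0.517). EIF2B5, the catalytic subunit of eIF2B, was higher under siPRMT1 (0.67 ± 0.12, adjusted p = 0.000936) and under control siRNA (0.42 ± 0.12, adjusted p = 0.0199, lost without AE9a control 1 or 3 or wild type control 1 or 2). EIF2S1 was called under siPRMT1 (0.35 ± 0.11, adjusted p = 0.0292, lost without AE9a siPRMT1 1 or 3 or wild type siPRMT1 3, or in the fit that pairs the wild type arrays) and gave 0.30 ± 0.11 under control siRNA (adjusted p = 0.0548). The second EIF1AX probe read 9.03, 9.08 and 8.92 in AE9a control arrays, against 8.12, 8.01 and 8.26 in wild type control arrays (0.88 ± 0.13, adjusted p = 0.000198). It read 9.17, 9.42 and 9.42 in AE9a siPRMT1 arrays, against 8.46, 8.0 and 8.24 in wild type siPRMT1 arrays (1.11 ± 0.13, adjusted p = 2.94e-05), so the lines did not overlap under either siRNA. The brightest EIF1AX probe was called under siPRMT1 (0.80 ± 0.26, adjusted p = 0.0374, lost without AE9a siPRMT1 2 or 3 or wild type siPRMT1 2 or 3). EIF5 was higher under siPRMT1, at 10.28, 10.14 and 10.04 in AE9a cells against 9.65, 9.04 and 8.24 in wild type cells (1.17 ± 0.29, adjusted p = 0.00844), but not in the mean of its 4 probes, nor in the fit that pairs the wild type arrays. EIF1 was lower under siPRMT1 (-0.72 ± 0.13, adjusted p = 0.00121) and gave 0.05 ± 0.13 under control siRNA (adjusted p = 0.847). EIF1AD, a protein with an eIF1A-like domain, was higher under siPRMT1 (0.56 ± 0.14, adjusted p = 0.00927), except in the fit that pairs the wild type arrays.

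The E-box marked in the promoters above was then counted over all genes. Promoters of 46 of the 56 initiation factor genes were in the RefSeq table, and 45 were searched, leaving out EIF1AY. CACGTG was found in 12 of 45 (26.7%), against 8.61% of 10937 tested genes with a promoter and 6.49% of all 27305 promoters. Of the 25 genes with a promoter among those called in any comparison, 6 held it. The other holders, EIF1B, EIF2B3, EIF3K, EIF4A3, EIF4EBP3 and EIF5A2, were called in no comparison. Of 10 initiation factor genes called lower in AE9a cells under control siRNA, 8 had a promoter. The motif was in 5 of these (62.5%), EIF2AK2, EIF3F, EIF4B, EIF4E and EIF4H. It was in 26.7% of all initiation factor promoters searched and in 9.57% of all genes called lower with a promoter. Of 9 called higher there, 8 had a promoter and 0 held it, against 7.99% of all genes called higher. All 9 genes that rose in AE9a cells after siPRMT1 had a promoter. EIF4E and EIF4G1 (2 of 9, 22.2%) held the motif, against 12.1% of all genes that rose. Of 6 that fell, 4 had a promoter and 0 held it, against 9.17%. The motif was chosen after these values were seen. The motif TGATGNAA, searched on both strands as a core of sites that ATF4 can bind, was in 0 of the 45 promoters, against 1.76% of tested genes. A match describes the letters of this window and shows neither binding nor a cause.

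Other genes of translation were taken from 5 companion lists, of which 50 of 54 genes were tested by their brightest probe. After siPRMT1 in AE9a cells 3 rose (6%, against 6.42% of all probes) and 9 fell (18%, against 7.39%), with a median of 0.02, against 0.01 for all probes, in wild type cells 0 did, and the count in AE9a cells was 6 without AE9a siPRMT1 3, 7 without AE9a control 3 and 19 in the fit that pairs the wild type arrays. Of 7 tested elongation factor genes, 3 fell: EEF2, the translocase (-0.46 ± 0.10, adjusted p = 0.00799), its inhibitory kinase EEF2K (-0.63 ± 0.15, adjusted p = 0.0127, lost without AE9a siPRMT1 1 or 3 or AE9a control 1) and EEF1G (-0.31 ± 0.09, adjusted p = 0.0274, lost without any AE9a array but control 1). Of 8 termination and recycling genes 1 rose, ABCE1, which splits ribosomes after termination (0.49 ± 0.12, adjusted p = 0.0167, lost without AE9a siPRMT1 3 or AE9a control 1 or 3). Of 12 cap and poly(A) partners 1 rose, the helicase DDX3X (0.55 ± 0.12, adjusted p = 0.007), and 1 fell, PAIP2 (-0.46 ± 0.14, adjusted p = 0.0498, lost without AE9a siPRMT1 1, 2 or 3, AE9a control 2 or 3, wild type siPRMT1 2 or wild type control 2). Of 10 genes around eIF2 phosphorylation 1 rose and 3 fell. Those that fell were PPP1R15A, which guides the phosphatase to eIF2 (-0.72 ± 0.12, adjusted p = 0.00149), TRIB3, a pseudokinase induced by ATF4 (-1.67 ± 0.28, adjusted p = 0.00172), and ATF4, whose translation rises when eIF2 is phosphorylated (-0.60 ± 0.12, adjusted p = 0.00441). Of 13 mTORC1 and S6 kinase genes 2 fell, the mTORC1 inhibitors DDIT4 (-2.32 ± 0.15, adjusted p = 1.17e-06) and SESN2 (-0.81 ± 0.20, adjusted p = 0.0161, lost without AE9a siPRMT1 2 or 3 or AE9a control 2 or 3).

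Between the lines under control siRNA, 5 companion genes were higher in AE9a cells (10%, against 13.2% of all probes) and 14 were lower (28%, against 13.4%), with a median of -0.08, against -0.02 for all probes. Under siPRMT1 2 were higher (4%, against 11.9%) and 18 lower (36%, against 12.8%), with a median of -0.23, against -0.01, and a count of 13 in all without AE9a siPRMT1 1. ABCE1 was lower with either siRNA: -1.06 ± 0.12 (adjusted p = 1.83e-05) with the control and -0.75 ± 0.12 (adjusted p = 0.000422) with siPRMT1. EEF1D, a subunit of the exchange factor of elongation, was lower with either siRNA: -1.04 ± 0.11 (adjusted p = 9.88e-06) with the control and -0.86 ± 0.11 (adjusted p = 6.48e-05) with siPRMT1. MCTS1, which helps recycle the small subunit, was higher with either siRNA: 0.73 ± 0.15 (adjusted p = 0.00239) with the control and 0.84 ± 0.15 (adjusted p = 0.000866) with siPRMT1. So was GSPT2, of the termination and recycling list: 1.54 ± 0.10 (adjusted p = 7.34e-08) with the control and 1.68 ± 0.10 (adjusted p = 3.25e-08) with siPRMT1. GSPT2 lay above the olfactory receptor level on 8 of the 12 arrays. RPS6, the ribosomal protein that S6 kinases phosphorylate, was lower with either siRNA: -0.38 ± 0.08 (adjusted p = 0.00167) with the control and -0.49 ± 0.08 (adjusted p = 0.000239) with siPRMT1. The test of the difference of the siPRMT1 effect between the lines called 2 companion genes, DDIT4 (-2.75 ± 0.21, adjusted p = 4.31e-05) and TRIB3. For TRIB3 the difference was -1.83 ± 0.40 (adjusted p = 0.0478), lost without any array but wild type siPRMT1 1 or wild type control 3. TRIB3 was higher in AE9a cells under control siRNA (1.67 ± 0.28, adjusted p = 0.000446) and not called under siPRMT1 (-0.15 ± 0.28, adjusted p = 0.766). DDIT4 was not called under control siRNA (0.14 ± 0.15, adjusted p = 0.583) and was lower under siPRMT1 (-2.62 ± 0.15, adjusted p = 1.45e-08).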

How the data were processed

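RNA of 12 K562 samples was read on Illumina BeadChips. The authors deposited a table of non-normalized bead intensity with no detection p-values and no control probes, in which no background appears to have been subtracted, judged from its lowest value of 29.4. The tool given, per the submitters' processing notes, is GenomeStudio (no version). Their deposited processed intensity table was used only as an alternative, as log2(value + 50). Groups came from the sample titles. Gene symbols came from GEO's platform annotation, in which 30113 probes have 1 symbol, 8 several and 17110 none.

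With limma 3.58.1 (R 4.3.3), background was corrected by normexp with an offset of 50 and arrays were quantile normalized. Median raw intensity ran from 60.5 to 74.3 over the arrays, and the 95th percentile of 437 olfactory receptor probes from 66.7 to 79.5. Probes with a mean above the 40th percentile (28338) were tested. One mean per group was fitted to all 12 arrays (lmFit, eBayes with an intensity trend, 13.8 degrees of freedom), with two-sided tests and Benjamini-Hochberg adjustment within each of 5 contrasts. On simulated data for the AE9a comparison, 200 of 28338 probes were changed. The fit recovered 94 of 103 changes of log2 1 and 48 of 97 changes of log2 0.5, with 8 false calls. The real comparison called 13.8% of all probes, a far larger share. The simulated shares therefore do not give the rate of missed changes in the real comparison.

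The initiation factors, their grouping by complex and the companion lists were chosen with earlier results of these data known. The genes chosen for array values were a fixed set of 16 and, by size of change, members called in each contrast whose groups did not overlap. Of the latter, up to 5 higher and 5 lower were taken in each contrast. For many of these only the arrays of some comparisons are printed, and for some, EIF4EBP2 among them, none are. Up to 3 called genes of each companion list were named. The other members are named as examples chosen after their values were seen. The brightest probe stands for a symbol, and others are given where they disagree.

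Same-numbered arrays deviated together in wild type cells (correlations 0.578, 0.283 and 0.536 for numbers 1, 2 and 3) and not in AE9a cells (-0.203, -0.296 and 0.000655). Between the lines the correlations were 0.204, 0.0441 and 0.0639 under control siRNA and 0.00328, 0.312 and 0.372 under siPRMT1. What the numbers stand for is not given, and numbers 2 and 3 also went together between the lines under siPRMT1. Alternatives changed the background correction, offset, normalization, source of the values, filter, pairing, array weights, variance model, arrays in the fit and probe choice, and left out each array. No 2 arrays held identical values. The number of arrays limits the precision.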

Additional observations from a re-analysis of the deposited data

How the results depend on the processing

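No initiation factor or companion gene call, changed sign under any alternative run. After siPRMT1 in AE9a cells, 17 initiation factor probes were called. That count was 28 (19 higher, 9 lower) with a replicate block in the wild type arrays only, 37 (23 and 14) with array weights and 31 (22 and 9) with only the arrays of the compared groups, and 9 to 22 when each array was left out. Of all probes, 13.8% were called in the main fit, against 21.5%, 25.1% and 23.2% in these settings. When each array was left out, the share of all probes ran from 7.36% to 17.9%. Companion genes called there (12) numbered 19 under the wild type block, 19 with array weights and 6 to 16 when each array was left out. In wild type cells 0 to 3 initiation factor probes and 0 to 3 companion genes were called when each array was left out, 3 in both cases without wild type control 3. For the difference between the lines, 0 initiation factor probes were called, 1 with the replicate block over all arrays, 2 with the wild type block, 1 with array weights and 0 to 1 when each array was left out. Of all probes, 0.917% were called in the main fit, against 1.42%, 4.38% and 1.61% in these settings and 0.293% to 1.23% without each array. Companion genes called for that difference (2) numbered 1 without background correction, 1 with offset 16, 5 with the wild type block, 4 with array weights and 1 to 4 when each array was left out. For AE9a against wild type under siPRMT1, 24 initiation factor probes were called, 19 to 27 when each array was left out, and 20 companion genes, 13 to 23. Under control siRNA these ran from 19 to 25 (23 called) and from 13 to 18 (19 called). The share of all probes ran from 20.5% to 27% under control siRNA and from 19.3% to 28.2% under siPRMT1. The cause of these shifts was not tested. Among the calls after siPRMT1 in AE9a cells, EIF4E was also lost under median scaling, with the submitters' processed values, without a filter and in the mean of its probes, EIF2B1 under median scaling and without a filter, EIF5B without a filter, and EIF5 in the mean of its probes. Between the lines under control siRNA, EIF3A and the second EIF4E probe were also lost under median scaling, with the submitters' processed values and without a filter. Both of these and EIF2B5 were lost with only the arrays of the compared groups, and the second EIF4G2 probe under median scaling. Between the lines under siPRMT1, EIF2S1 and EIF3L were lost under median scaling, and EIF2S1 and EIF4A2 without a filter. EIF2S1 and EIF3CL were lost with only the arrays of the compared groups, and EIF1AX, EIF3CL and EIF4A2 without an intensity trend. With 3 arrays a group, changes of log2 0.5 were often missed in the simulation. It changed far fewer probes than the real comparison called, so the rate of missed changes in the real data is not known from it.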
